A study of Mus musculus with 48 samples.

Results

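The hippocampus and the cerebral cortex arise side by side in the wall of the same embryonic vesicle, and their astrocytes were compared here just after birth. The comparison sets astrocyte RNA from the hippocampus of mice at postnatal day 1 (P1) against astrocyte RNA from the cortex at the same age. It used 6 of the 48 mouse libraries of the series, namely all 3 hippocampus and all 3 cortex libraries labelled P1. The labels give tissue, cell type and age for these groups and name no strain, genotype, reporter, sort marker or sex. The series asks how inhibitory input acts on astrocytes through the GABA-B receptor. Levels at P7 and P14 in both regions, and at P1 in the olfactory bulb, are set beside the P1 values where they help.

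As background, the dorsal forebrain is laid out by signals from its medial edge, the cortical hem, which borders the future hippocampus and secretes Wnt and BMP proteins. Radial glia, the stem cells of the forebrain wall, first give rise to excitatory neurons through intermediate progenitors that express Eomes, and then turn to making astrocytes. In the first days after birth the cortex has largely ended neurogenesis, while the dentate gyrus of the hippocampus goes on adding granule neurons from a migrating progenitor pool. Young astrocytes at this age still divide and share many genes with radial glia.

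The 6 libraries carried the defining genes of astrocytes. All 21 genes of that list were detected, and their summed level was 120612 to 153477 normalized reads in cortex and 63371 to 76789 in hippocampus. A normalized read here is a recovered read divided by 1 factor per library, so that the middle gene is level across the 6 libraries. Neuronal genes were present too: the 15 listed neuron markers summed to 31615 to 42543 in cortex and to 32218 to 39812 in hippocampus. In bulk RNA, fewer cells of a type and less RNA per cell cannot be told apart. Depth was 14070691 to 14513455 reads in the cortex libraries and 5098757 to 8986015 in the hippocampus libraries. The unprocessed ribosomal transcript Rn45s took 19.4% to 27.3% of reads and was left out. Hippocampus replicate 1 held reads of the Y-linked gene Ddx3y (1028 normalized reads) and little Xist (96.1), while the other 5 libraries held no Ddx3y read. The cortex and hippocampus libraries carry separate runs of library numbers in their labels and come from separate deposited tables, so region and run cannot be told apart. Nothing in the labels says that replicates are separate animals, so the p-values measure the spread between these libraries, which may be technical.

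Region separated the P1 libraries widely. Of 13759 genes with a mean of at least 10 normalized reads, 5733 (41.7%) passed the test at an adjusted p under 0.05, which is called changed in what follows. Of these, 2734 (19.9% of genes tested) were higher in hippocampus and 2999 (21.8%) were lower. The 3 libraries of one region lay wholly above the 3 of the other for 7215 genes (52.4%), with hippocampus above for 3527 (25.6%) and below for 3688 (26.8%). A change of at least 2-fold was seen for 1056 higher and 1637 lower genes, and one of at least 8-fold for 47 and 222. The median log2 difference over all genes tested was -0.02. Of the changed genes, 47.7% were higher in hippocampus, and with each table left on its deposited scale, where the median of all genes shifted to -0.26, this share was 27.6%. Without hippocampus replicate 1, the library with Y-linked reads, 4791 genes passed.

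**Figure D1:**
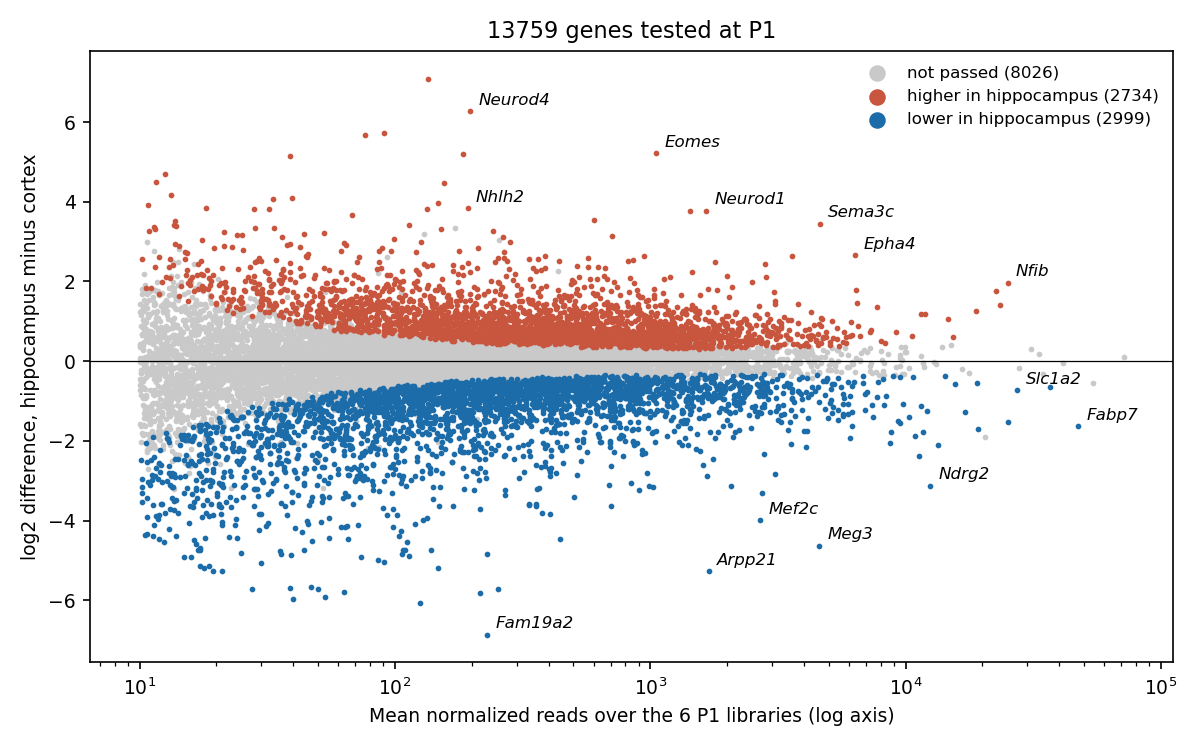
Each point is 1 of the 13759 genes tested, with its mean normalized reads over the 6 P1 libraries on a log axis and its log2 difference, hippocampus minus cortex, on the vertical axis. The 2734 genes higher in hippocampus are red, the 2999 lower are blue and the 8026 that did not pass are grey; large differences occur at every level, with Eomes and Meg3 far from 0 among well-covered genes.

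Factors that drive neurogenesis were among the genes with the largest differences toward the hippocampus. Eomes, the T-box factor of intermediate progenitors, stood at 64.7, 34.5 and 69.8 normalized reads in the 3 cortex libraries and at 2055, 2377 and 1746 in the 3 hippocampus libraries. Every hippocampus library lay far above every cortex library, and the log2 difference was 5.22 ± 0.24 (SE, adjusted p = 3.48e-08). Neurod4, a basic helix-loop-helix (bHLH) factor of nascent neurons, was at 0.744, 3.91 and 13.00 in cortex and at 477, 372 and 313 in hippocampus. Its groups did not overlap, and its log2 difference was 6.28 ± 0.59 (SE, adjusted p = 5.59e-06). Neurog2, the proneural bHLH factor that starts excitatory neurogenesis, was at 23.1, 9.77 and 18.5 in cortex and 280.4, 303 and 165 in hippocampus, a log2 difference of 3.82 ± 0.36 (SE, adjusted p = 6.22e-06). Neurod1, a bHLH factor needed for dentate granule neurons, was at 227, 190.1 and 257 in cortex and 2916, 3256 and 3058 in hippocampus. The groups were again wide apart, with a log2 difference of 3.78 ± 0.14 (SE, adjusted p = 1.75e-08).

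These 4 genes moved together, so the stretch just upstream of each start is printed, 5′ to 3′ on the gene's own strand, from the RefSeq promoter table of build GRCm38.p6. Capitals mark matches of 2 motifs, searched on both strands: the E-box CANNTG, the general target of bHLH proteins, and TATATAA, a form of the TATA box that was chosen after the sequences were seen.
Eomes, chr9:118477939-118478188, plus strand: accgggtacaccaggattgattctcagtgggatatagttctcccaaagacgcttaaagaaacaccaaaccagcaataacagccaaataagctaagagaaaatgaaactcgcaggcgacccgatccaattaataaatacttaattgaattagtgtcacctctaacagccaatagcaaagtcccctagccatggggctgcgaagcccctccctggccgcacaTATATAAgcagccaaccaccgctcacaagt
Neurog2, chr3:127632886-127633134, plus strand: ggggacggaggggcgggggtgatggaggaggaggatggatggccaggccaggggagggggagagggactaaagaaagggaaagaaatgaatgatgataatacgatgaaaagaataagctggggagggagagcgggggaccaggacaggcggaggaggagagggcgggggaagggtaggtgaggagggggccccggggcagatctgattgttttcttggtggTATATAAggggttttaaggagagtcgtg
Neurod1, chr2:79456752-79456886, minus strand: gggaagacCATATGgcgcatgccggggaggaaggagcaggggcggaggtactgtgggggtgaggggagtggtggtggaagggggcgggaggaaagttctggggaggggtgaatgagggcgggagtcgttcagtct
Neurod4, chr10:130280255-130280504, minus strand: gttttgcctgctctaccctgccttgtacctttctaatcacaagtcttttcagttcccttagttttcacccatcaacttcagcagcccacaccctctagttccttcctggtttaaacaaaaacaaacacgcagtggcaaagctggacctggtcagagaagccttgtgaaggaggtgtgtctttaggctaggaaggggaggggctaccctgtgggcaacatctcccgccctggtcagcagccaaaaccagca
The windows hold 250 bases for Eomes and Neurod4, 249 for Neurog2 and 135 for Neurod1, each ending before the first annotated start. TATATAA occurs once in the Eomes window and once in the Neurog2 window, and 3.04% of the 32851 promoters in the table hold it over 250 bases. The Neurod1 window holds 1 E-box, and the windows of Eomes, Neurog2 and Neurod4 hold none. An E-box is present in 66.2% of promoters over 250 bases and in 45.6% over 135 bases. These matches describe the letters in the windows and were not tested as sites.

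The list of excitatory neuron lineage factors was split by region. Of 30 members tested, 13 were higher in hippocampus and 16 lower, against 19.9% and 21.8% of all genes, and the list's median log2 difference was -0.54. Beside the 4 genes above, Fezf2, a zinc-finger factor of deep-layer neurons, was higher in hippocampus, at 155, 202 and 254 in cortex and 1076, 1221 and 822 in hippocampus (log2 difference 2.36 ± 0.20, SE). The lower members included factors of postmitotic cortical neurons. Mef2c, a factor of maturing neurons, was at 6061, 4941 and 4202 normalized reads in cortex and at 344, 239 and 379.9 in hippocampus, a log2 difference of -3.99 ± 0.18 (SE, adjusted p = 3.48e-08). Ldb2, a LIM domain-binding factor, was at 647, 774 and 714 in cortex and 93.8, 88.1 and 103 in hippocampus. All 3 hippocampus values lay under all 3 cortex values, with a log2 difference of -2.89 ± 0.16 (SE, adjusted p = 1.67e-07). Tshz2 and Cux2, both linked to layered cortical neurons, were lower by the same test, with log2 differences of -2.78 and -2.38.

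Neuron markers moved beside these genes. Of the 15 general neuron markers, 3 were higher in hippocampus and 8 lower (19.9% and 21.8% of all genes), with a median log2 difference of -0.71, while their summed levels given above overlapped between regions. Nefl, a neurofilament subunit, was at 98.97, 95.7 and 114 in cortex and 6.703, 1.42 and 15.2 in hippocampus. Syt1, the calcium sensor of synaptic vesicles, was lower as well, with a log2 difference of -1.997 ± 0.16. The opposite was seen for Slc17a6, the vesicular glutamate transporter VGLUT2, at 288, 262 and 192 in cortex and 1409.9, 1319 and 1426 in hippocampus (log2 difference 2.501 ± 0.16, SE). The part of these neuronal transcripts in the lineage factor differences was not tested.

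**Figure D2:**
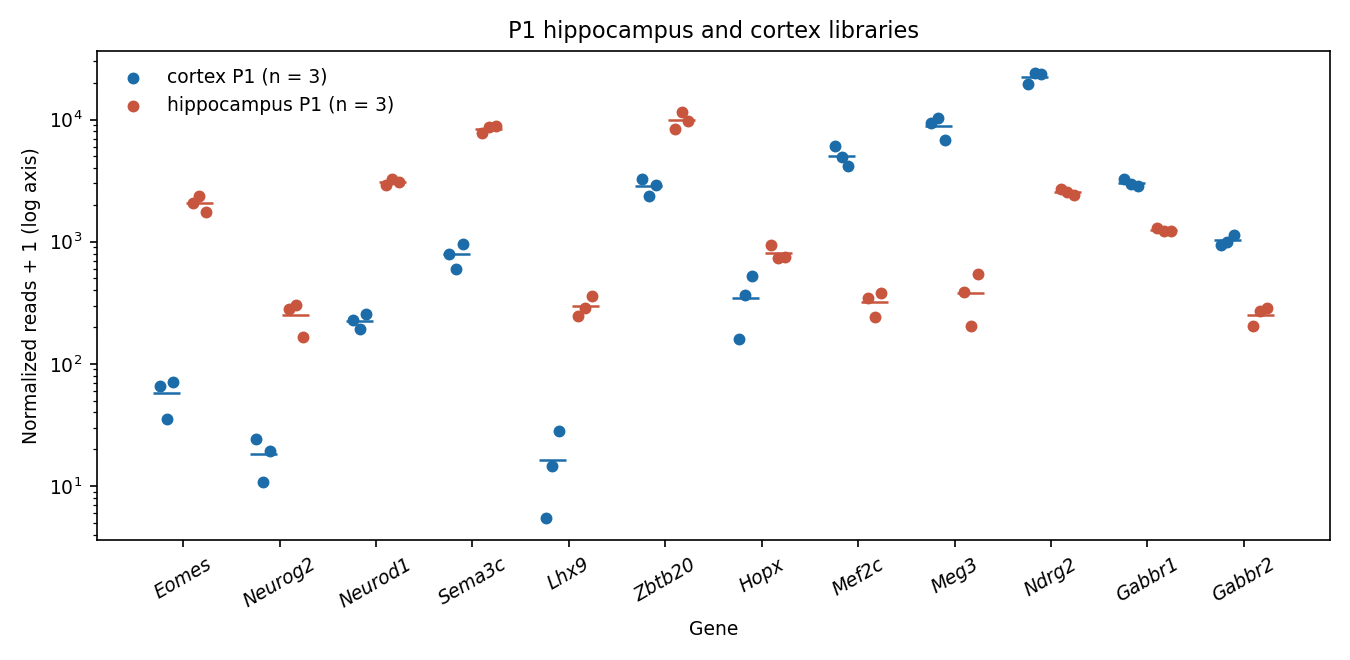
Normalized reads plus 1 on a log axis for 12 genes in each of the 3 cortex P1 (blue) and 3 hippocampus P1 (red) libraries; points are libraries and short lines are group means. For every gene drawn the points of the 2 regions are apart, with Eomes at 34.5 to 69.8 in cortex and 1746 to 2377 in hippocampus, and Mef2c at 4202 to 6061 in cortex and 239 to 379.9 in hippocampus.

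The plot of gene lists counts the members that passed in each list. The forebrain patterning factors, which set regional identity, had 17 of 29 tested members higher in hippocampus and 5 lower (19.9% and 21.8% of all genes), with a median log2 difference of 0.60. The 5 lower became 3 without cortex replicate 1 or without hippocampus replicate 3. Lhx9, a LIM homeodomain factor of the medial pallium, was at 4.46, 13.7 and 27.4 normalized reads in cortex and 247, 283 and 359 in hippocampus. Its groups were widely separated, with a log2 difference of 4.48 ± 0.48 (SE, adjusted p = 1.50e-05). Dmrt3, a doublesex-related factor expressed in the medial pallium, was at 0.744, 11.1 and 1.37 in cortex and 75.97, 56.9 and 53.2 in hippocampus. Zbtb20, a zinc-finger factor required for hippocampal identity, was well expressed in both regions, at 3291, 2355 and 2939 in cortex and 8394, 11498 and 9771 in hippocampus (log2 difference 1.79 ± 0.16 (SE, adjusted p = 3.72e-06)). Nfib, a nuclear factor I protein that promotes gliogenesis, was at 11277, 8840.1 and 10433 in cortex and 37049, 48109 and 34897 in hippocampus, a log2 difference of 1.97 ± 0.17 (SE, adjusted p = 2.60e-06). Otx2, a homeodomain factor of choroid plexus and hem, varied within hippocampus (208, 27.01 and 94.97) and was at 7.44, 7.16 and 24.6 in cortex. Toward the cortex, Meis1 and Pbx3, both TALE homeodomain factors, had log2 differences of -1.89 and -1.32. A separate list of hippocampal field genes, which also holds Zbtb20, had 2 of 15 tested members higher in hippocampus and 6 lower. Its median log2 difference was -0.52.

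More genes of the Wnt pathway were higher than lower in hippocampus. Wnt ligands bind Frizzled receptors, R-spondins strengthen the signal, and Axin2 is a common feedback target. Of 36 members tested, 17 were higher (19.9% of all genes) and 2 lower (21.8%), with a median log2 difference of 0.65. Among the ligands, Wnt8b, a product of the cortical hem and medial pallium, was at 0, 1.302 and 7.53 normalized reads in cortex and 216, 152 and 79.8 in hippocampus. At most 11 reads per cortex library lay behind it, and its log2 difference was 5.69 ± 0.73 (SE, adjusted p = 6.01e-05). Wnt5a, a ligand mainly of non-canonical signalling, was at 107, 149.7 and 122 and 516, 438 and 467 (log2 difference 1.91 ± 0.18, SE). The R-spondins Rspo3 and Rspo2 had log2 differences of 2.03 and 1.77. The receptor Fzd1 was at 202, 184 and 203 in cortex and 831, 968 and 765 in hippocampus, with tight replicates and a log2 difference of 2.11 ± 0.15 (SE, adjusted p = 9.13e-07). Axin2, the feedback target, was at 166, 195 and 186 and 483, 385 and 353 (log2 difference 1.15 ± 0.18, SE). Tcf7l1, a repressive partner of beta-catenin, and Dkk3 were the 2 lower members. Without hippocampus replicate 3 neither passed (adjusted p = 0.0593 and 0.0668), nor did Tcf7l1 without cortex replicate 3 (0.0849) or Dkk3 without cortex replicate 2 (0.117).

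In the BMP pathway, 6 of 26 members were higher in hippocampus and 2 lower, with a median log2 difference of 0.21. The share of higher members was near the 19.9% of all genes, and that of lower members was under their 21.8%. Grem1, a secreted BMP antagonist, was at 5.95, 14.97 and 4.79 in cortex and 56.98, 104 and 77.9 in hippocampus. The target genes Id4 and Id2, inhibitors of bHLH proteins, were higher, with log2 differences of 1.43 ± 0.16 and 1.197 ± 0.14 (SE), as was Smad7, an intracellular inhibitor (1.62 ± 0.28). Bmpr1b, a type I receptor, was lower in hippocampus, at 682, 793 and 832 in cortex and 297, 296 and 327 in hippocampus.

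The genes that define astrocytes were lower in hippocampus at this age. Of 21 members, 16 were lower (21.8% of all genes) and 1 was higher, with a median log2 difference of -1.03. Ndrg2, a cytoplasmic protein of astrocytes, was at 19636, 24074 and 23502 normalized reads in cortex and 2709, 2560.4 and 2418 in hippocampus. The 2 groups were far apart with little spread, and the log2 difference was -3.12 ± 0.13 (SE, adjusted p = 2.66e-08). Apoe, the main lipid carrier of the brain, was at 6567, 6095 and 5879.5 in cortex and 2066, 1732 and 1721 in hippocampus (log2 difference -1.75 ± 0.13, SE). Aldh1l1, the folate enzyme widely used as an astrocyte marker, was at 1842, 1925 and 2065 and 573, 712 and 593, a log2 difference of -1.64 ± 0.13 (SE, adjusted p = 1.92e-06). The single higher member was Sox9, the gliogenic transcription factor shared with radial glia, at 1270.2, 1641 and 1646 in cortex and 2345, 3244 and 2245 in hippocampus (log2 difference 0.77 ± 0.16, SE). The glutamate transporter Slc1a2 had a log2 difference of -0.72. The 4 members that did not pass include Slc1a3, a glutamate transporter, at 11215, 14343 and 14878 in cortex and 13543, 12755 and 11949.5 in hippocampus. They also include Gfap, an intermediate filament protein, at 657, 1200.5 and 2253 in cortex and 986, 606 and 919 in hippocampus.

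Markers of radial glia and neural progenitors differed in both directions. Of 18 members, 8 were higher in hippocampus and 2 lower (19.9% and 21.8% of all genes), with a median log2 difference of 0.37. The higher members numbered 5 on the deposited scale and 4 when limma ran without the mean-variance trend. The summed level of the list was 146775 to 173900 in cortex and 106546 to 141402 in hippocampus. Hes1, a Notch target that holds progenitors back from differentiating, was at 16.4, 50.1 and 81.4 in cortex and 203, 245 and 203 in hippocampus (log2 difference 2.38 ± 0.44, SE). Hopx, a marker of outer radial glia and dentate progenitors, was at 159, 368 and 518 and 944, 734 and 754. Pax6, a progenitor homeodomain factor, was close to constant within each region, at 214, 212 and 207 and 559.7, 539 and 606 (log2 difference 1.43 ± 0.15 (SE, adjusted p = 1.13e-05)). Dll1, a Notch ligand, and Tnc, an extracellular matrix protein, had log2 differences of 1.45 and 1.26. The lower members were Fabp7, the brain lipid-binding protein, and Nes, the intermediate filament nestin. Fabp7 was at 75105, 63097 and 76632 in cortex and 25270.1, 21136 and 22792 in hippocampus.

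Cell cycle genes were mostly higher in hippocampus. Of 30 members, 22 were higher (19.9% of all genes) and 2 lower, with a median log2 difference of 0.77. Mki67, the proliferation antigen, was at 1737, 1289.7 and 1849 in cortex and 4243, 4747 and 4667 in hippocampus (log2 difference 1.501 ± 0.15 (SE, adjusted p = 8.15e-06)). Ccne2 and Ccne1, cyclins of the entry into DNA replication, had log2 differences of 1.67 and 1.48. The 2 lower members were the D-type cyclins Ccnd2 and Ccnd1, with Ccnd2 at 13249, 18746 and 18898 in cortex and 8861, 7088 and 5669.9 in hippocampus. The number of higher members was 14 without cortex replicate 2, and 13 with each table on its deposited scale. It was 10 with a 2-fold change also required and 8 in a fit of 19 libraries over 3 ages. The list's summed level overlapped between regions, at 22943 to 29626 in cortex and 22005 to 25791 in hippocampus.

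**Figure D3:**
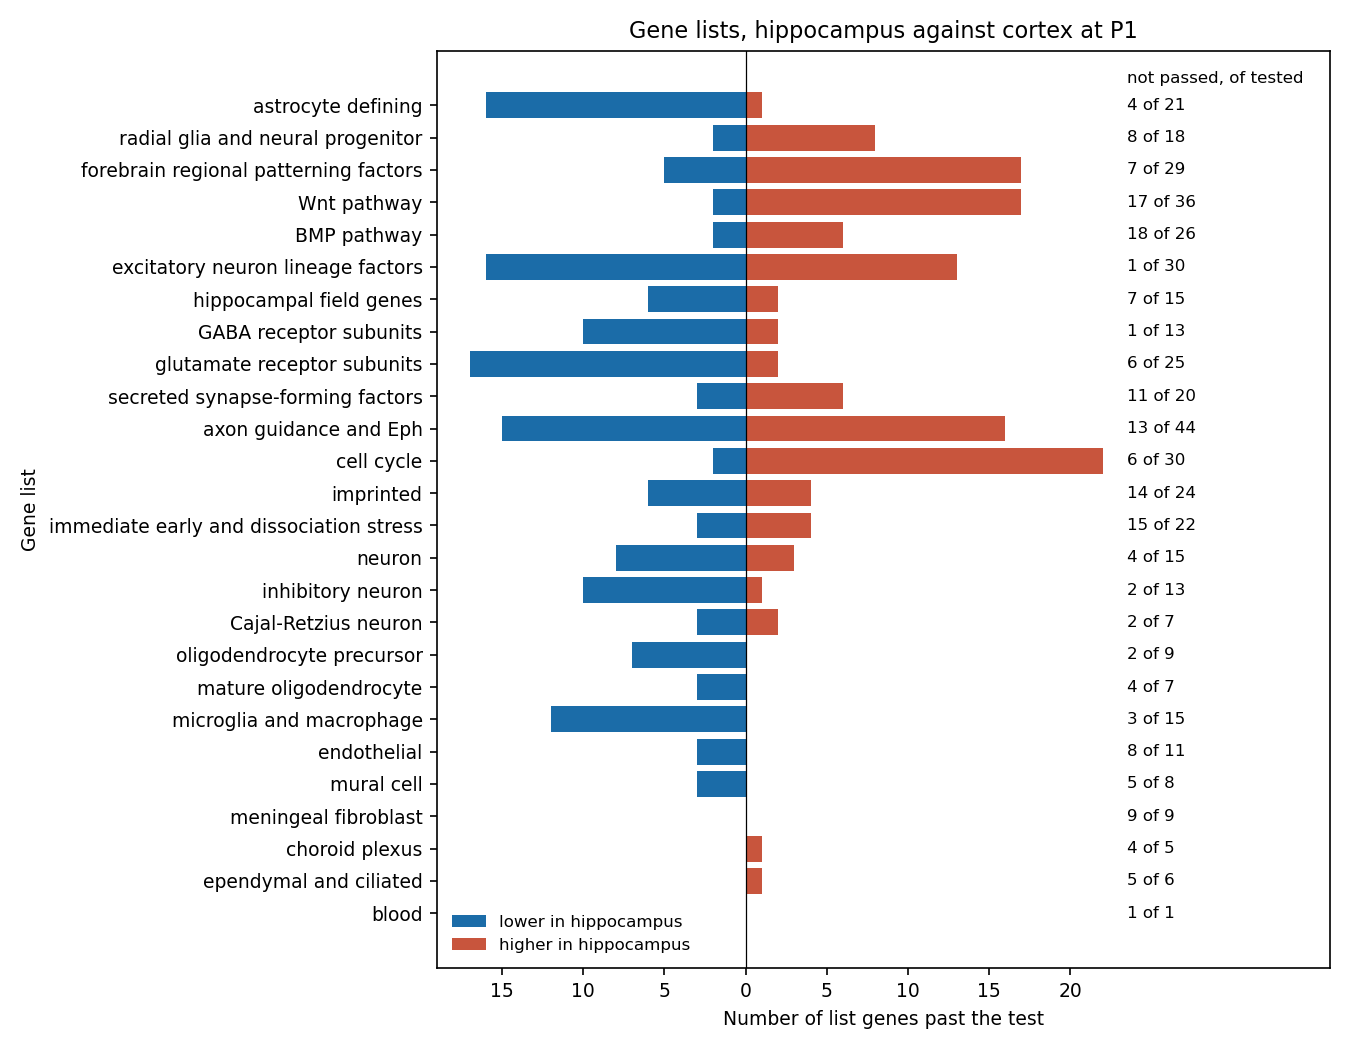
For each of 26 gene lists, bars to the right count members higher in hippocampus and bars to the left members lower at P1, and the text at the right gives how many of the tested members did not pass. Cell cycle (22 higher, 2 lower) and astrocyte defining genes (1 higher, 16 lower) have the most uneven bars among the longer lists; over all genes 19.9% were higher and 21.8% lower.

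Receptors for both main transmitters were mostly lower in hippocampus. Of the 13 GABA receptor subunits tested, 10 were lower (21.8% of all genes) and 2 higher, with a median log2 difference of -1.28. Gabbr1, the ligand-binding subunit of the GABA-B receptor, was at 3272, 2981 and 2881 normalized reads in cortex and 1296, 1227 and 1225 in hippocampus. The groups did not overlap, with a log2 difference of -1.28 ± 0.12 (SE, adjusted p = 5.16e-06). Gabbr2, the subunit that couples the receptor to G proteins, was at 945, 997 and 1141 in cortex and 202, 267 and 285 in hippocampus. These groups did not overlap either, with a log2 difference of -2.04 ± 0.16 (SE, adjusted p = 1.82e-06). Gabra5, an alpha subunit of the GABA-A channel, had a log2 difference of -2.54. The 2 higher members were Gabra4, at 146, 247 and 294 in cortex and 737, 609.9 and 733 in hippocampus, and Gabrb1, with a log2 difference of 1.08 ± 0.19 (SE).

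Among glutamate receptor subunits, 17 of 25 tested were lower in hippocampus and 2 higher (21.8% and 19.9% of all genes), with a median log2 difference of -1.25. Grik3, a kainate receptor subunit, was at 897, 526 and 546 in cortex and 55.9, 32.7 and 75.98 in hippocampus (log2 difference -3.59 ± 0.30 (SE, adjusted p = 2.17e-06)). The metabotropic receptor Grm7 and the NMDA receptor subunit Grin2a had log2 differences of -2.93 and -2.89. Grik2, another kainate subunit, was higher, at 1059, 986 and 868 and 1491, 1243 and 1691, and the NMDA receptor subunit Grin2c was higher at a low level, at 7.44, 7.16 and 5.47 and 44.7, 28.4 and 20.9. With each table on its deposited scale Grik2 did not pass (adjusted p = 0.0778), and Grin2c was under the minimum mean and was not tested. Grin2c also did not pass without hippocampus replicate 1 (adjusted p = 0.0761). Of the 15 neuron markers above, 8 were lower and 3 higher, and their part in both receptor lists was not tested.

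Axon guidance genes differed in both directions. Of 44 members tested, 16 were higher in hippocampus and 15 lower (19.9% and 21.8% of all genes), and on the deposited scale 14 were higher and 19 lower. Sema3c, a secreted semaphorin, was at 797, 597 and 963 in cortex and 7805, 8642 and 8895 in hippocampus. Every hippocampus value was far above every cortex value, and the log2 difference was 3.45 ± 0.16 (SE, adjusted p = 3.49e-08). Nrp1 and Nrp2, the neuropilins that bind secreted semaphorins, were higher as well. Nrp1 was at 623, 912 and 1125 and 3965, 6239.6 and 4072, while Nrp2 was at 71.4, 433 and 460.5 and 1409.9, 2131 and 1162, with cortex replicate 1 apart from the other cortex libraries. Epha4, an ephrin receptor, was at 2136, 1584 and 1499.8 in cortex and 10073, 12727 and 9959 in hippocampus (log2 difference 2.66 ± 0.16 (SE, adjusted p = 2.16e-07)). Dcc, the netrin receptor, was at 1085, 911 and 967 and 6549, 6191 and 5767, a log2 difference of 2.64 ± 0.12 (SE, adjusted p = 3.49e-08). On the cortical side, Unc5c, another netrin receptor, was at 763, 639 and 536 in cortex and 77.1, 89.6 and 144 in hippocampus. Plxnd1, a plexin receptor, had a log2 difference of -2.45 ± 0.19.

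Secreted factors that act on synapses were mixed, with 6 of 20 higher in hippocampus and 3 lower (19.9% and 21.8% of all genes). Without hippocampus replicate 2, 5 were lower. Tgfb2, a transforming growth factor, was at 935, 925 and 1128 in cortex and 3711, 5006 and 3303 in hippocampus (log2 difference 1.99 ± 0.16 (SE, adjusted p = 1.82e-06)). Bdnf and Nptx1, a neurotrophin and a neuronal pentraxin, were higher from low levels, with log2 differences of 2.46 ± 0.58 and 2.12 ± 0.35 (SE). Sparcl1, the synapse-promoting matrix protein hevin, was at 13162, 26692 and 26047 in cortex and 4709, 5778 and 4304 in hippocampus. Its relative Sparc, which opposes it, was lower too, at 8914, 8666 and 10354 and 3658, 2585 and 2935.

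At the imprinted Dlk1 to Dio3 region of chromosome 12, 3 non-coding transcripts were lower in hippocampus together. On build GRCm38, GENCODE places Meg3 at chr12:109541001-109571726, Rian at chr12:109603940-109661716 and Mirg at chr12:109729764-109749460, all on the plus strand. Meg3 was at 9299.5, 10243 and 6850.4 normalized reads in cortex and 385, 203 and 543 in hippocampus, a log2 difference of -4.63 ± 0.28 (SE, adjusted p = 2.16e-07). Rian was at 1707, 1668 and 1365 and 331, 240.3 and 399 (log2 difference -2.31 ± 0.18, SE). Mirg was at 33.5, 43.6 and 28.1 and 1.12, 5.69 and 0, with at most 4 reads in any hippocampus library. The protein-coding genes at either end, Dlk1 and Dio3, were under the minimum mean and were not tested. H19, an imprinted non-coding RNA of another chromosome, was lower as well, at 747, 762 and 632 and 247, 148 and 112. Over the whole imprinted list 4 of 24 members were higher and 6 lower, both near the shares of all genes (19.9% and 21.8%). Without cortex replicate 2 these counts were 2 and 4, and 2 were higher without hippocampus replicate 1.

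The remaining genes with the largest differences had varied roles. Higher in hippocampus were Nhlh2, a bHLH factor of Cajal-Retzius cells and other young neurons (17.1, 23.4 and 35.6 in cortex, 371, 368 and 340.0 in hippocampus), and Rasgef1b, an exchange factor for Ras-family proteins (256, 174 and 164 and 2455, 3214 and 2353). Has2, the enzyme that makes hyaluronan, was at 49.9, 103 and 153 in cortex and 1046, 1322 and 938 in hippocampus. Cxcr4, the chemokine receptor that steers migrating dentate and Cajal-Retzius cells, was at 24.6, 46.9 and 74.6 and 494, 414 and 397. Of the 7 Cajal-Retzius markers tested, Nhlh2 among them, 2 were higher and 3 lower (19.9% and 21.8% of all genes). Their median log2 difference was -0.20, and the list's summed level was 1046 to 1572 in cortex and 1184 to 1398 in hippocampus. Mfap4, a matrix glycoprotein, Onecut2, a homeodomain factor, and Sstr2, a somatostatin receptor, had log2 differences of 3.13, 3.11 and 2.98. Ifi203, at 5.198, belongs to a family of near-identical genes and is uncertain.

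Lower in hippocampus by the largest amounts were Fam19a2, a small secreted protein, at 557, 488 and 317 in cortex and 0, 4.26 and 9.497 in hippocampus, and Arpp21, an RNA-binding phosphoprotein of forebrain neurons. Arpp21 was at 4163, 3399 and 2356 and 63.7, 83.9 and 106, a log2 difference of -5.26 ± 0.22 (SE, adjusted p = 2.66e-08). Sla, an adaptor protein, and Trank1 had log2 differences of -5.82 and -5.72. The non-coding RNA Snhg11 was at 715, 1045 and 781 in cortex and 32.4, 29.9 and 53.2 in hippocampus. Ryr2, the calcium release channel, and Kcnma1, the large-conductance calcium-activated potassium channel, had log2 differences of -3.801 and -3.64, beside Ccbe1 (-4.84), Csmd3 (-3.85) and Camkv (-3.71). Among the genes of highest mean level, Tcf4 and Sox11, transcription factors of the developing brain, and Ttc3 were higher, by log2 differences of 1.401, 1.75 and 0.61. Map1b, Gpm6b and Ptn, a microtubule protein, a membrane proteolipid and a secreted growth factor, had log2 differences of -0.65, -1.53 and -1.69. Map1b did not pass without hippocampus replicate 3 (adjusted p = 0.0618).

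Markers of some other cells the preparation could hold also differed between regions. Of 13 inhibitory neuron markers, 10 were lower in hippocampus and 1 higher (21.8% and 19.9% of all genes), and 6 were lower without cortex replicate 1. Npy, a neuropeptide of interneurons, was at 278, 189 and 192 in cortex and 2.23, 12.8 and 7.598 in hippocampus, and Sst, another, held 0 to 1 reads per hippocampus library against 127, 77.5 and 113 normalized reads in cortex. Of the 9 oligodendrocyte precursor markers, 7 were lower (21.8% of all genes) and 0 higher. Olig1, which immature astrocytes also express, was at 1979, 1756 and 1947 and 463, 815 and 477. Of 15 microglia and macrophage markers, 12 were lower (21.8% of all genes), with summed levels of 1357 to 3579 in cortex and 501 to 867 in hippocampus. Endothelial markers summed to 149.6 to 1722 in cortex and 171 to 446 in hippocampus, and 3 of 11 were lower, near the 21.8% of all genes. Their median log2 difference was -1.74 with 0 higher, and 7 were lower when edgeR was run on the recovered reads. The number of lower endothelial markers was 10 without cortex replicate 1 and 1 without cortex replicate 3. For choroid plexus, Ttr was at 0, 109 and 2860.1 in cortex and 143, 25.6 and 75.98 in hippocampus, so that it varied most inside the cortex group. Of the 10 blood genes, 6 were at 0 in all 6 libraries, including the haemoglobin genes Hba-a1 and Hbb-bs. In the immediate early and dissociation stress list, 4 of 22 members were higher in hippocampus and 3 lower (19.9% and 21.8% of all genes), and 1 was lower without cortex replicate 2 or 3. The part of these cells in the regional differences was not tested.

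Fewer genes passed at P7. With the 3 hippocampus and 3 cortex libraries of that age, 1039 of 13845 genes (7.5%) passed, 358 higher (2.59%) and 681 lower (4.92%) in hippocampus. That count rests on single libraries: it was 93 without hippocampus P7 replicate 2, 119 without cortex P7 replicate 1 and 1796 without hippocampus P7 replicate 3, and 17 when limma ran without the mean-variance trend. The 2 ages share no library. In each region the P1 and P7 libraries carry separate ranges of library numbers, as do the 2 regions at P7. Neither age nor region can therefore be told apart from run in these comparisons. Of 5645 genes changed at P1 and tested at P7, 79.3% kept the sign of their difference, against 67.2% of all 13323 genes tested at both ages. Of 1029 genes changed at P7 and tested at P1, 701 changed in the same direction at both ages and 32 in opposite directions. Of all genes tested at P1, 41.7% were changed.

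A test of the difference between ages, P7 minus P1, passed for 1633 of 13889 genes (11.8%), of which 721 (5.19%) were more positive at P7 and 912 (6.57%) more negative. It passed for 994 genes without cortex P1 replicate 2. The share more positive was 44.2%, and it was 55.5% with TMM scaling, 61.4% with factors over 28 libraries and 63.3% on the deposited scales. The difference between ages is computed from the P1 difference itself, so genes picked for a large P1 difference lean toward the opposite sign. Of 1431 genes changed at P1 that also passed this test, the regional difference was smaller or turned at P7 for 1428. At P7, 12 of 22 immediate early and stress genes were higher in hippocampus, against 2.59% of all genes at that age (median log2 difference 1.56). Their part in the P7 values was not tested.

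Among genes lower in hippocampus at P1 was Meg3, which did not pass the P7 comparison, at 5749.8 ± 4189 normalized reads (SD, n = 3) in cortex and 5224 ± 4241 in hippocampus at P7. Its regional log2 difference moved by 4.48 ± 0.90 (SE, adjusted p = 0.00622) from P1 to P7. Arpp21 was at 2077 ± 1032 in cortex and 839.9 ± 441 in hippocampus at P7, and its difference moved by 3.97 ± 0.52 (SE, adjusted p = 0.000576). The regional differences of Trank1 and Snhg11 moved by 4.51 and 4.31. Mef2c, Ndrg2, Apoe and Gabbr1 also came closer between regions, by 1.85, 2.00, 1.72 and 0.73. When limma ran without the trend, the test did not pass for Snhg11, Mef2c and Gabbr1 (adjusted p = 0.0555, 0.0544 and 0.0589), and in a fit of 19 libraries over 3 ages it did not for Trank1 and Snhg11 (adjusted p = 0.157 and 0.154). The move of Gabbr1 was under the 2-fold change required in another alternative. Ndrg2 passed the test at P7 too, at 18911 ± 1657 in cortex and 8890.1 ± 2548 in hippocampus.

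Some genes higher in hippocampus at P1 moved the opposite way, and those described here were chosen for it. Rasgef1b moved most among genes of at least median level, by -2.79 ± 0.31 (SE, adjusted p = 0.000239), to 146 ± 13.2 in cortex and 295 ± 90.6 in hippocampus at P7. Sema3a, a secreted semaphorin, was at 435, 389 and 358 in cortex and 779.8, 1103 and 889 in hippocampus at P1. By P7 the order of the means had turned, to 240.0 ± 88.9 in cortex and 96.1 ± 5.67 in hippocampus, a move of -2.46 ± 0.33 (SE, adjusted p = 0.000609). That p-value is for the move and not for the P7 difference alone. Fam163a, the netrin receptor Unc5d and the RNA-binding protein gene Mex3b moved by -2.61, -2.42 and -2.42. Sema3c and Epha4 moved by -2.08 and -1.82. Unc5d and Sema3c did not pass in the fit of 19 libraries (adjusted p = 0.156 and 0.230). In the Wnt list 10 members became more negative and 0 more positive, against 6.57% and 5.19% of all genes.

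Several factors of regional identity differed at both ages. Lhx9, Dmrt3 and Wnt8b had log2 differences of 5.004, 6.08 and 5.71 at P7 (adjusted p = 0.0127, 0.0036 and 0.00688), and Zbtb20 one of 1.401 ± 0.14 (SE, adjusted p = 0.00216). Gabbr2 stayed on the cortical side, with -1.85 ± 0.27 (SE, adjusted p = 0.00729). Eomes and Neurod1 were still higher in hippocampus, by 4.08 and 2.92 (adjusted p = 0.0133 and 0.00563). Without hippocampus P7 replicate 2, Lhx9, Dmrt3, Wnt8b and Eomes did not pass at P7 (adjusted p = 0.0830, 0.0528, 0.0625 and 0.0844). Lhx9 and Eomes did not pass without cortex P7 replicate 1 (adjusted p = 0.0627 and 0.0703), and Wnt8b and Eomes did not without hippocampus P7 replicate 1 (adjusted p = 0.0512 and 0.0518). Zbtb20, Gabbr2 and Neurod1 passed whichever P7 library was left out, but not when limma ran without the trend (adjusted p = 0.0574, 0.0754 and 0.0655), nor did Lhx9 and Eomes then (0.0783 and 0.0805). For these 7 genes the difference between ages did not pass the test, which does not show that it was equal. At P14, Zbtb20 was at 3843 ± 576 (SD, n = 4) in cortex and 7858 ± 1056 (SD, n = 3) in hippocampus. Ndrg2 was then at 101906 ± 11674 and 27064 ± 2994.

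**Figure D4:**
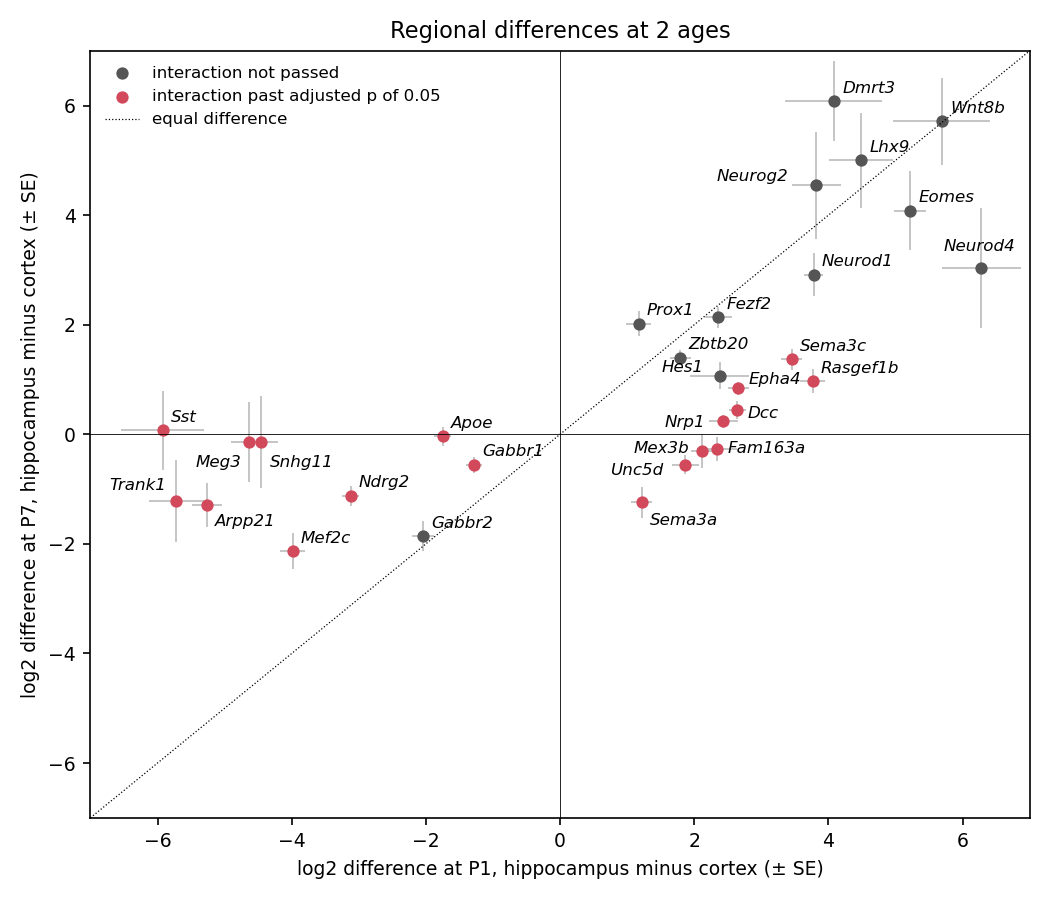
Log2 difference, hippocampus minus cortex, at P1 (horizontal) and P7 (vertical) for 30 genes, with bars of 1 SE; red marks genes whose difference between ages passed the test and the dotted line marks equal differences. Lhx9, Wnt8b and Gabbr2 lie near the line, while Meg3 and Arpp21, at -4.63 and -5.26 at P1, have differences of -0.15 and -1.29 at P7.

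**Figure D5:**
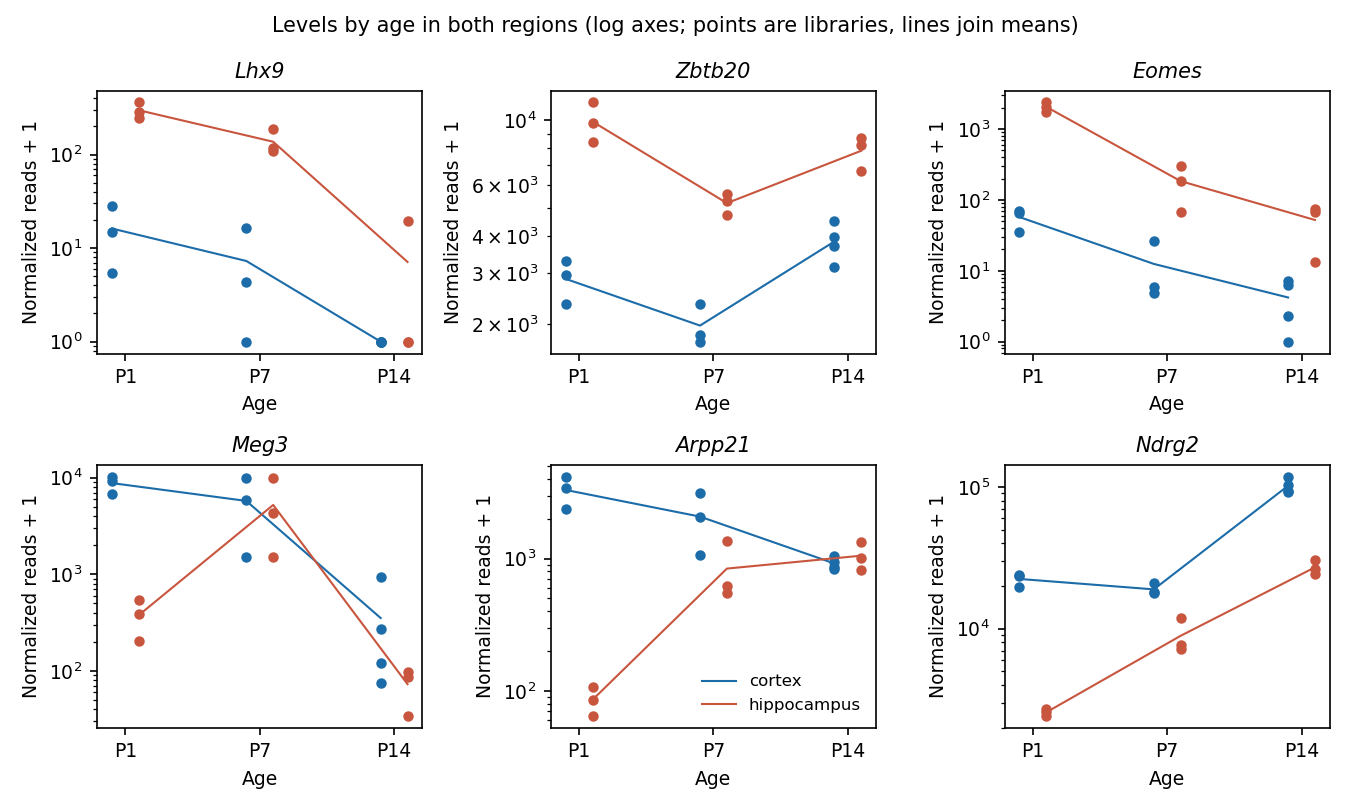
Normalized reads plus 1 on log axes at P1, P7 and P14 for 6 genes in cortex (blue) and hippocampus (red); points are libraries and lines join group means. Lhx9, Zbtb20 and Eomes stay higher in hippocampus at P1 and P7, Meg3 and Arpp21 lie closer between regions at P7 than at P1, and Ndrg2 has its highest mean at P14 in both regions.

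The olfactory bulb, the other region sampled at P1, shows where these levels lie in a wider set. Its 3 libraries, scaled to the same reference, had Eomes at 2392 ± 455 normalized reads (SD, n = 3), near the hippocampus mean of 2059 ± 316 and above the cortex mean of 56.3 ± 19.1. Neurod1 was at 1787 ± 424 in the bulb. Lhx9 was at 9.23 ± 9.16, beside 296 ± 57.2 in hippocampus and 15.2 ± 11.5 in cortex, and Zbtb20 was at 3192 ± 422, near the cortex level. Gabbr2, at 55.8 ± 11.6, was lower in the bulb than in either other region by value. Meg3 was at 2224 ± 700.4, between the others. The bulb libraries carry numbers next to those of the P1 hippocampus libraries and had a like depth, at 5473837 to 9062118 reads. A likeness of bulb to hippocampus therefore cannot be told apart from run. These bulb levels are given as a description and were not tested.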

How the data were processed

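Astrocyte RNA from mouse cortex and hippocampus at P1 was compared, with 3 libraries in each group. Per the labels' protocols, tissue was dissociated and libraries were built with the Trio RNA-seq kit (Nugen) from a nanogram or less of total RNA. The submitters' processing notes name FastQC, MultiQC, STAR 2.5.0a, DESeq2 1.20.0 and build mm10. The counting program, annotation and strand setting are not given in the sources used here, so overlapping and antisense genes cannot be told apart.

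The authors deposited 1 table per region with 24421 symbols, whose unit is a normalized signal for each gene. In every column 100% of values were whole multiples of the column's smallest value (within 0.01 of a read), so the signal is a read count divided by 1 factor per library, and reads were recovered by that division. In the tables, 27 symbols turned into dates were restored by row order. Because the authors scaled each table separately, Rn45s was dropped, the tables were joined by row order, and all libraries were rescaled by median ratio to the 6 P1 libraries.

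Genes with a mean of at least 10 were tested on log2(value + 1) with limma 3.58.1 (R 4.3.3, mean-variance trend) and Benjamini-Hochberg adjustment. Log2 differences are on that scale and come out too small for genes near 0. The same test gave the P7 comparison and the difference between ages over 12 libraries. The procedure was tested on simulated data. Recovered reads were also tested with edgeR 4.0.16, which called 5732 genes at P1, and DESeq2 1.42.0, which called 5813.

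Groups came from the tissue and age labels. Replicate numbers follow accession order and only name a library. Named genes were Gabbr1 and Gabbr2, list members (at most 5 a direction by size), the 12 largest rises and falls at P1 among non-overlapping genes of at least median level, the 5 changed genes of highest mean in each direction, and the 5 largest moves between ages in each direction. Axin2, Slc1a3, Gfap, Ttr, Olig1 and the other P7 values were chosen after their values were seen. The comparison, the lists and the rules were chosen with earlier results of these data known. Gene positions come from GENCODE M21 on GRCm38, and 17224 of 24421 symbols matched the RefSeq promoter table. The P28 libraries were not analysed here, and a few genes that these rules name are not reported here.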

Additional observations from a re-analysis of the deposited data

Results flagged for a closer look

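Each value here was singled out because the hippocampus to cortex difference at P7 was not that at P1 by a test of the change itself. This test passed for 1633 of 13889 genes. Among the named genes, the regional log2 difference became more positive at P7 for Trank1 (4.51), Meg3 (4.48), Snhg11 (4.31), Arpp21 (3.97), Ndrg2 (2.00), Mef2c (1.85), Apoe (1.72) and Gabbr1 (0.73), all of which were lower in hippocampus at P1. It became more negative for Rasgef1b (-2.79), Fam163a (-2.61), Sema3a (-2.46), Unc5d (-2.42), Mex3b (-2.42), Sema3c (-2.08) and Epha4 (-1.82), all of which were higher in hippocampus at P1. The change is computed from the P1 difference, by which several of these genes were chosen, so its opposite sign was partly set in advance. The ages also differ in their library numbers, so age and run cannot be told apart here. Groups of 3 libraries are too small to single out an odd library by its gap from the rest.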

How the results depend on the processing

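At P1 the 5733 changed genes became 2693 (1056 higher, 1637 lower) when a 2-fold change was also required. In a fit of 19 libraries over 3 ages they became 3272 (1401 higher, 1871 lower), and 1584 were higher on the deposited scales. Leaving out 1 library at a time gave 4376 to 5612 changed, 2128 to 2607 higher and 2248 to 3006 lower. The 1633 genes whose regional difference moved between ages became 2572 with array weights (1183 more positive, 1389 more negative), 1012 without the trend (462 and 550.0), 968 with a 2-fold change added (420 more negative) and 671 over 19 libraries (332 and 339). More negative were 591 on the deposited scales and 594 with factors over 28 libraries. Leaving out 1 library at a time gave 994 to 1513, with 443 to 717 more positive and 551 to 810 more negative. The cause was not tested. Of 106 named genes called at P1, 21 lost the call in some alternative, 13 of them in the 19-library fit and 4 on leaving out 1 library. Those 13 were Bdnf, Ccne1, Dll1, Gabra5, Grik2, Grin2a, H19, Has2, Map1b, Mirg, Nptx1, Rspo2 and Slc17a6. Of 15 named for the change between ages, 6 lost the call in some alternative. Among 943 list counts under alternatives, 831 stayed within 1.5 times. The P7 alternatives were added after seeing the data. The hippocampus libraries held fewer reads than the cortex libraries, and thinned to 3825820 reads each the P1 comparison gave 5308 genes. No paired analysis was possible because the labels give the libraries of the 2 regions no shared replicate number.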
